A study of Mus musculus with 4 samples.

Results

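The comparison described here sets the chromatin accessibility of an intermediate of trans-differentiation to neural stem cells against that of fibroblasts. Its members are the sites listed for the intermediate and not for fibroblasts, called gained, and the sites listed for fibroblasts and not for the intermediate, called lost. Within each library's peak list, peaks on chromosomes 1 to 19 with at most 10 bp from the end of one to the start of the next were joined into a site. A site that shared at least 1 bp with a site of the other list was called shared. In this way 43065 of 69882 sites of the intermediate were gained and 52330 of 78840 sites of the fibroblasts were lost, out of 302876 joined sites in the 4 libraries of the series. A site missing from a list holds no listed peak there, and its accessibility in that library was not measured in any other way.

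ATAC-seq marks open chromatin by the places where a transposase can reach the DNA and cut in its adapters; it was run on 50000 cells per library, with 1 library for each of 4 mouse populations. The fibroblasts (MEF, mouse embryonic fibroblasts) carry the strain label A12 (Mbd3 flox/-). The intermediate came from Nanog-CreER reporter fibroblasts labelled B6/129, bred from Rosa26-TdTomato and Col1a-OSKM parents, so that doxycycline switches on Oct4, Sox2, Klf4 and Myc, the OSKM factors, and 4-hydroxytamoxifen lets a Cre recombinase driven by Nanog switch on tdTomato. Both agents were present from day 1 until day 9 and a JAK1 inhibitor was given at 0.5 µM; tdTomato+ cells, without feeder cells, were then sorted. Day 9 is the time in its title and protocol, while its source field has day 6. The induced pluripotent stem cells (iPSC, labelled A12 (Mbd3 flox/-) like the fibroblasts) and the v6.5 embryonic stem cells (ESC) serve below only to look up gained and lost sites in lists that did not define them. The MEF and the intermediate thus differ in strain label, transgenes, sorting and treatment at once, and these cannot be told apart. The labels do not say whether the fibroblasts were pooled from several embryos. With 1 library per group there is no replicate check, no test was made and no p-value is given; the Wilson 95% intervals cover counting error over sites or genes only.

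During reprogramming, Oct4 and Sox2 bind sites that are closed in fibroblasts, while enhancers kept accessible by the fibroblast's own regulators, among them AP-1, Runx and Tead factors, lose accessibility. An early visible step is a mesenchymal-to-epithelial transition, in which matrix and contractile genes are shut down and adhesion genes such as Cdh1, which encodes E-cadherin, are activated. Most start sites of widely expressed genes lie in CpG islands, which stay accessible in most cell types, whereas sites far from genes differ more between cell types.

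MEF had 155064 peaks, the intermediate 130631, iPSC 128931 and ESC 125858, which joined into 78840, 69882, 81885 and 72269 sites. The median site was 820 bp wide in MEF and 840 bp in the intermediate, and the sites covered 73.8 and 64.6 Mb. Sequencing depth is unknown, since read totals were not used. The height of a site is that of its tallest peak as the authors' files give it, unscaled, with medians of 44 in MEF and 50 in the intermediate; heights of different libraries are therefore set beside each other as descriptions and not as differences. Of 10 fibroblast marker genes, 10 had a site within 1 kb of a gene end in MEF and 6 in the intermediate (Fn1, Prrx1, Col1a1, Vim, Col1a2 and Thy1). Of 10 pluripotent markers, Utf1 had such a site in MEF, and 7 had 1 in the intermediate: Nanog, Zfp42, Sall4, Lin28a, Tdgf1, Fgf4 and Utf1. Sites at the ends of fibroblast markers were not particular to fibroblasts, since 7 of the 10 had 1 in iPSC and 9 in ESC. A population of this kind may be a mixture, and fewer cells with an open site cannot be told apart from fewer transposition events per cell.

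The 250 bases before the start of 6 genes are shown because these stretches held a site in 1 of the 2 lists only, and because the letters of known motifs in them differ. They come from RefSeq (GRCm38.p6, the assembly of mm10) and run 5′ to 3′ on the gene's strand. Capitals mark matches, on either strand, to the motif letters searched for, which were TGANTCA for AP-1, GGAATG for TEAD factors, TGTGGT for RUNX factors, ATGCAAAT for the octamer of Oct4, ACAATG for Sox factors, GGGTGTGG for Klf factors, GGGCGG for the GC box, CCAAT for the box of that name, TATAAA for the TATA box, CACGTG for the E-box of Myc, TGACGTCA for the cyclic AMP response element, CCGGAAGT for Ets factors and AACCGGTT for Grhl factors. The genes were chosen after their values were seen. The first 3 had gained starts: Nanog, the homeodomain factor whose promoter drives the Cre used for sorting (chr6:122707239-122707488, + strand; height 65 in the intermediate), Zfp42, which encodes the pluripotency marker Rex1 (chr8:43307010-43307259, − strand; height 140), and Cldn4, a tight junction claudin (chr5:134946935-134947184, − strand; height 169).
Nanog: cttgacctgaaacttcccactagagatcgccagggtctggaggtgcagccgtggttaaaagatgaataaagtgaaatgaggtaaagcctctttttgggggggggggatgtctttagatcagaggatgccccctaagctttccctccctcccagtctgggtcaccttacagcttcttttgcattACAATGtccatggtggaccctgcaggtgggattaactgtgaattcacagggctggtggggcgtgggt
Zfp42: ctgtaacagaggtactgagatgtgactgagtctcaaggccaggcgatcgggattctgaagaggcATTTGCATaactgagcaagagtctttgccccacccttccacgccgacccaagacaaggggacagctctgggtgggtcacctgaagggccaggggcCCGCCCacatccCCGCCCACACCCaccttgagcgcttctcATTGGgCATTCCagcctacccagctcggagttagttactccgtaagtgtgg
Cldn4: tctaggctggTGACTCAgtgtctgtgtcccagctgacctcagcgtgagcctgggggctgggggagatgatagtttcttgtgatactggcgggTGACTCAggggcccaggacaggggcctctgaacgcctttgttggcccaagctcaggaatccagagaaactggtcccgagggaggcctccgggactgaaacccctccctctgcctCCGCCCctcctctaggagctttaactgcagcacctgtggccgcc
The other 3 had lost starts: Ankrd1, a muscle ankyrin repeat gene and target of Yap and Tead (chr19:36119845-36120094, − strand; height 127 in MEF), Col3a1, a fibrillar collagen (chr1:45311288-45311537, + strand; height 48), and S100a4, a calcium-binding protein also known as fibroblast-specific protein (chr3:90603520-90603769, + strand; height 158).
Ankrd1: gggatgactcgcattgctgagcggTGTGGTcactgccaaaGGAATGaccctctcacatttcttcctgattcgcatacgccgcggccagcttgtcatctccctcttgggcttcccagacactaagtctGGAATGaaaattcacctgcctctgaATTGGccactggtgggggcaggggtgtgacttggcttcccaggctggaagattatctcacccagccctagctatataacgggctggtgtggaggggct
Col3a1: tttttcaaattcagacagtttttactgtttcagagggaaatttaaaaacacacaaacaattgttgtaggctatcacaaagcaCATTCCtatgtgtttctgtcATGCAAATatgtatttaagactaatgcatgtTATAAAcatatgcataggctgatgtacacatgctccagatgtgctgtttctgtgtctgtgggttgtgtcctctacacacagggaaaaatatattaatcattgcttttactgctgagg
S100a4: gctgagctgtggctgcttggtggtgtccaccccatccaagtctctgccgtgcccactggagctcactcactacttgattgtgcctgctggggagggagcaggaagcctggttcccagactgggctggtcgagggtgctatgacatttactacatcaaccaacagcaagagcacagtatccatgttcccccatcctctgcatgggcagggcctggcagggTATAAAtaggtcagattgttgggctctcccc
In the Nanog stretch a Sox match began 67 bases before the start. In that of Zfp42 an octamer match began 186 bases before it and a Klf match 75 bases before it. Cldn4 held AP-1 matches beginning 240 and 158 bases before the start, and Ankrd1 held TEAD matches beginning 210 and 123 bases before it. The lost start of Col3a1 also held an octamer match, 148 bases before its start. S100a4 held a TATA box 31 bases before its start and no other match. At all 6 starts the other of the 2 lists held no site, as the choice required. None of the 3 lost starts held a site in iPSC or ESC, while all 3 gained starts held 1 in each. In this the 6 do not stand for their classes. Of all lost start windows 63.0% held a site in ESC and 54.7% in iPSC, and of all gained ones 69.9% and 66.1%.

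The first question the comparison answers is how much of each list is particular to it. Of the sites of the intermediate 61.6% were gained (61.3 to 62.0), and of the sites of MEF 66.4% were lost (66.0 to 66.7). The remaining 26817 sites of the intermediate and 26510 sites of MEF overlapped. By the same rule, 61.8% of ESC sites had no MEF site and 65.3% of MEF sites no ESC site, so the intermediate's list lay about as far from that of MEF as the ESC list did. Between the intermediate and ESC the shares were smaller, with 48.4% of intermediate sites absent from ESC (48.0 to 48.8) and 50.3% of ESC sites absent from the intermediate. Those comparisons share lists, so they are given side by side and not as independent evidence.

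Few calls hung on the 1 bp limit. Of the gained sites 310 (0.720%) and of the lost sites 355 (0.678%) lay within 50 bp of a site of the other list, just outside the limit, and 298 shared sites of the intermediate (1.11%) overlapped by at most 50 bp, just inside it. The median shared site of the intermediate overlapped over 830 bp, or 92.3% of its length. Gained and lost sites often lay near each other all the same: 22.3% of gained sites had a lost site within 5 kb, and 18.9% of lost sites had a gained site that near. By chromosome, the gained share ran from 49.4% on chromosome 19 to 67.3% on chromosome 1. The lost share ran from 60.9% on chromosome 7 to 69.9% on chromosome 18.

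Gained and lost sites were lower and narrower than shared sites. The median height was 45 for gained sites against 64 for shared sites of the intermediate, and 39 for lost sites against 66 for shared sites of MEF. Median widths were 770 and 750 bp for gained and lost sites, and 1000 and 1060 bp for the shared sites of the 2 lists. The lists were divided into 10 deciles by height. In the tallest decile of the intermediate's list, at heights of 138 and over, 30.8% of sites were gained. The share was 48.3% in the second decile and reached 73.6% in decile 9. In the tallest decile of the MEF list, at heights of 124 and over, 19.1% of sites were lost, and the share reached 83.5% in decile 9. The tallest sites of MEF were thus absent from the other list less often than those of the intermediate, and from decile 3 on the order of the 2 lists was the other way round. Under the 1 bp rule a wide site has more room to overlap another, and taller sites were wider. Median widths in the tallest and lowest deciles were 1340 and 420 bp in the intermediate and 1440 and 450 bp in MEF. The part of width in these contrasts was not tested.

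**Figure D1:**
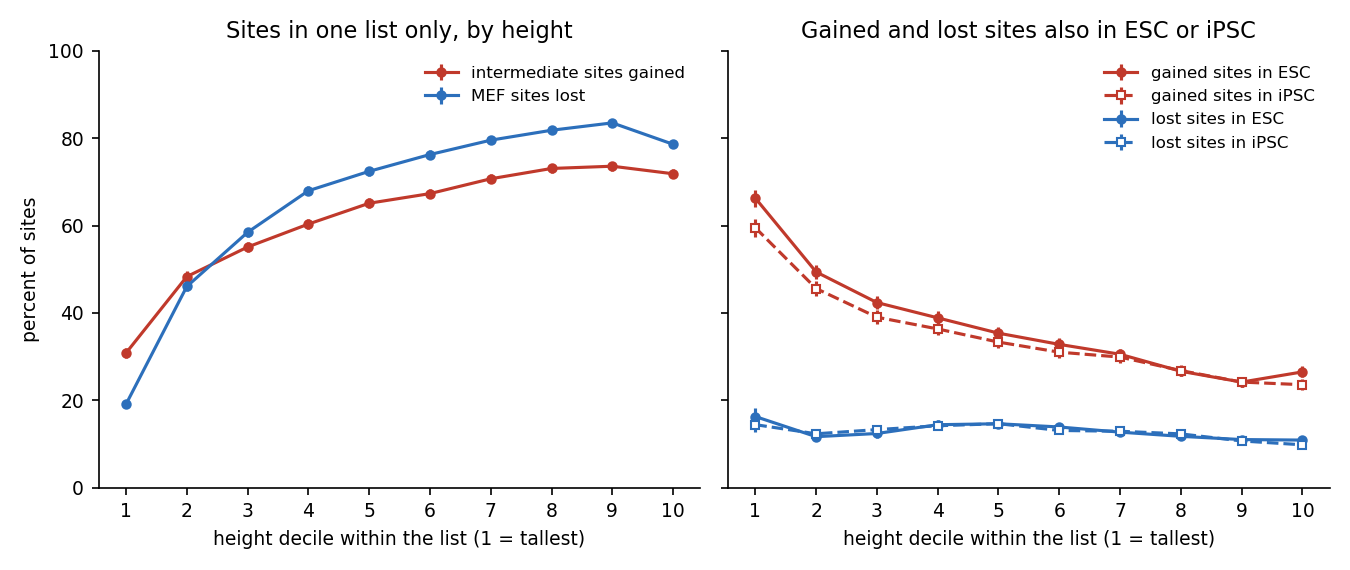
Left, the percent of sites found in 1 list only (vertical axis) for each decile of the list by height (horizontal axis, 1 = tallest), for the intermediate and for MEF; right, the percent of those gained and lost sites that overlapped a site of ESC or iPSC. Bars are Wilson 95% intervals over sites, in many places smaller than the points. Gained sites of the tallest decile were in ESC in 66.3% of cases, while lost sites stayed between 10.9 and 16.3% in every decile.

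The ESC and iPSC lists played no part in defining the sites. Of the gained sites 34.8% were also in ESC, 32.8% in iPSC and 25.0% in both, and 57.5% were in neither. Of the lost sites 12.7% were in ESC, 12.6% in iPSC, and 82.4% in neither. Height separated the gained sites in this respect: the share in ESC was 66.3% in the tallest decile and 24.2% in decile 9. Tall gained sites were therefore mostly sites that ESC also had, and low ones mostly sites that no other list had. Shared sites of the intermediate were in ESC in 78.6% of cases, with 95.7% in the tallest decile and 57.4% in decile 9. A fall with height was therefore not particular to gained sites.

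Gained and lost sites lay mostly away from gene ends, in nearly the same proportions, and the order of the 2 shares depended on how the sites were joined or the lists cut. Of the gained sites 2912, or 6.76% (6.53 to 7.0), lay within 1 kb of either end of a protein-coding gene, and of the lost sites 3637, or 6.95% (6.73 to 7.17). The share was 44.3% for shared sites. The median distance to the nearest gene end was 23.3 kb for gained sites, 25.5 kb for lost sites and 2.12 kb for shared sites. Gene bodies held 51.2% of gained and 53.6% of lost sites, and 19.3% and 20.5% lay over 100 kb from any end. Either end stands for the start in these counts, because the gene table used has no strand.

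Read the other way, distance divided the lists more sharply. Within 1 kb of a gene end 19.7% of intermediate sites were gained and 23.6% of MEF sites lost. At 1 to 5 kb the shares were 61.5% and 65.0%, and over 100 kb away they were 84.7% and 87.7%. Tall sites at gene ends were nearly all shared: of the tallest decile within 1 kb of an end, 124 of 3487 sites of the intermediate (3.56%) were gained and 79 of 4731 sites of MEF (1.67%) were lost. In the tallest decile over 1 kb from an end, 58.0% of intermediate sites were gained and 45.3% of MEF sites lost. Lost sites near ends differed from those far away in their presence in ESC, which was 38.7% within 1 kb (37.1 to 40.3) and 7.01% over 100 kb (6.54 to 7.51). Gained sites were in ESC in 47.6% of cases within 1 kb (45.8 to 49.4) and in 34.2% over 100 kb (33.2 to 35.2).

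**Figure D2:**
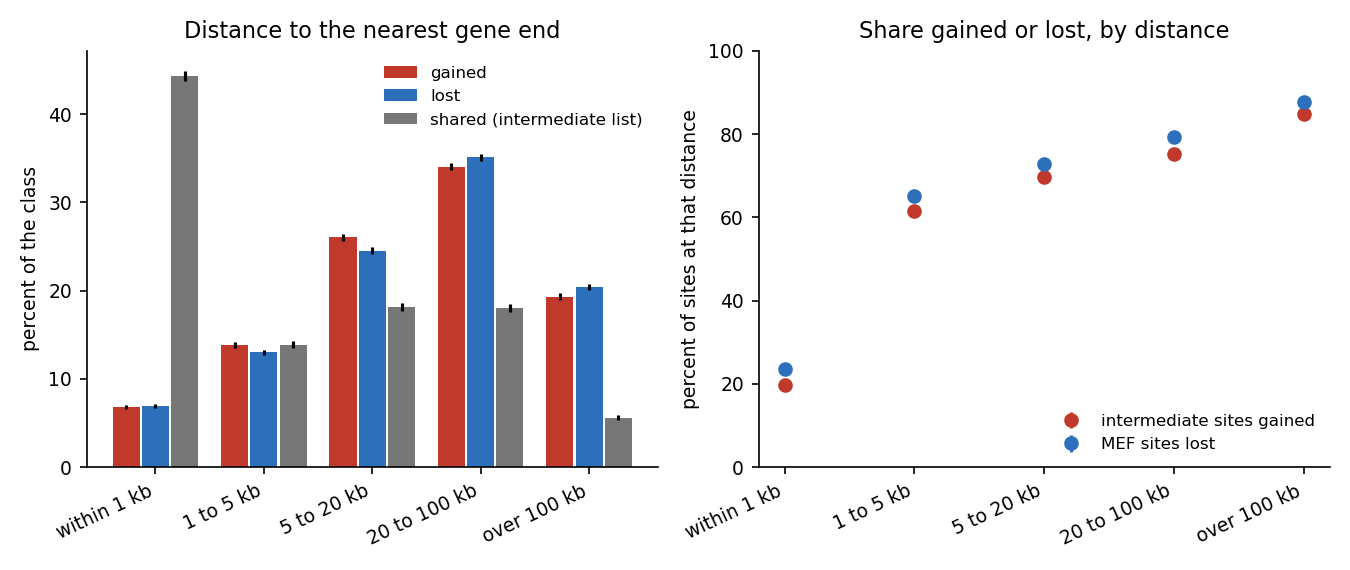
Left, the percent of gained, lost and shared sites (bars from 0, with Wilson 95% intervals) in 5 ranges of distance to the nearest end of a protein-coding gene; right, the percent of all intermediate sites gained and of all MEF sites lost in each range. The shared class stands out within 1 kb with 44.3%, while the gained and lost shares rise from 19.7 and 23.6% near gene ends to 84.7 and 87.7% over 100 kb away.

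The next question is at which starts a site was gained or lost. RefSeq windows from 250 bases before to 50 bases after the start were used here, 20085 of them for 16457 genes, with the strand known. In 931 windows (4.64%) a site lay in the intermediate only, in 1383 (6.89%) in MEF only, in 10784 in both and in 6987 in neither. Gained and lost windows were poorer in CpG than windows with a site in both lists. The median ratio of observed to expected CpG was 0.411 in gained, 0.483 in lost, 0.796 in both and 0.188 in neither. Median GC content was 56.3%, 57.3%, 62.7% and 47.0% in that order. A site in ESC lay in 69.9% of the gained and 63.0% of the lost windows, beside 64.0% of all windows. It lay in 98.4% of the windows with a site in both lists and in 10.3% of those in neither. Many lost starts thus had a site in ESC, at about the share of all starts.

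Motif letters in the windows set the gained and lost starts apart from starts with a site in both lists, and less from each other. The octamer of Oct4 (ATGCAAAT) was in 3.2% of gained windows (2.27 to 4.56), 1.4% of lost windows (0.881 to 2.14) and 1.7% of all windows. It was in 2.1% of windows with a site in neither list (1.77 to 2.44), an interval that overlapped that of the gained windows. The Klf letters GGGTGTGG were in 6.1% of gained, 4.2% of lost and 3.7% of all windows. These 2 sets of letters were most frequent in the gained class, in a small part of its windows. The letters of the other factors given to the intermediate were not: the E-box of Myc was in 7.5% of gained, 6.8% of lost, 10.6% of both and 7.9% of all windows, and the Sox letters were most frequent in windows with a site in neither list, at 17.5%. AP-1 letters were in 8.6% of gained (6.96 to 10.6), 10.6% of lost (9.05 to 12.3) and 7.1% of all windows. TEAD letters were in 13.9%, 16.2% and 13.4%, and RUNX letters in 13.3%, 15.0% and 14.8%. In windows with a site in neither list the shares were 10.5% for AP-1, 16.3% for TEAD and 20.8% for RUNX. None of these 3 sets of letters was thus particular to lost starts. The Sox letters were in 10.4% of gained, 8.3% of lost and 10.4% of all windows. The intervals of the gained and lost windows overlapped for AP-1, TEAD, RUNX, Sox and Klf. They did not overlap for the octamer and for the CCAAT box, which was in 34.8% of gained (31.8 to 37.9), 28.8% of lost (26.5 to 31.2) and 38.1% of all windows. In all 13 motifs were read. The GC box was in 46.4% of gained and 43.0% of lost windows against 70.2% of those in both lists, and the Ets letters in 1.6% and 1.4% against 9.1%. Base composition also differs between the classes, and its part in these shares was not tested. A match is a match of letters only.

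**Figure D3:**
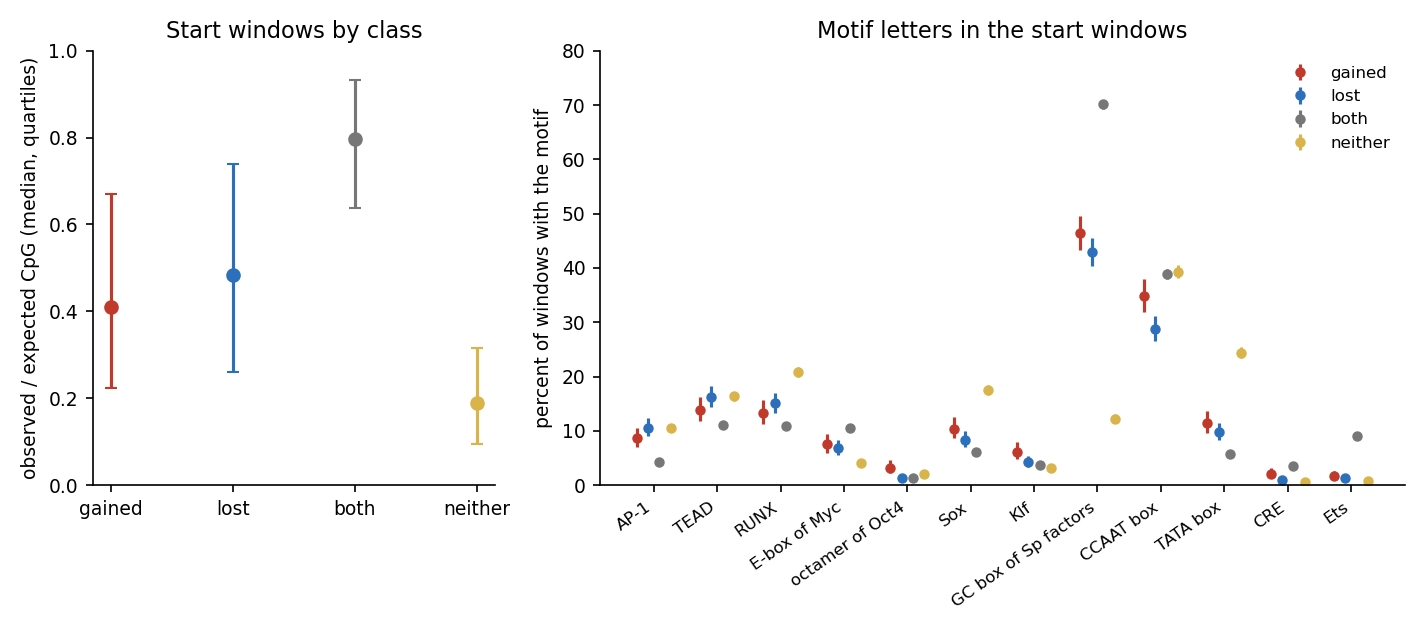
Left, the ratio of observed to expected CpG (points are medians, bars quartiles) in start windows with a site in the intermediate only (gained), in MEF only (lost), in both or in neither; right, the percent of windows of each class that hold the letters of 12 motifs on either strand, with Wilson 95% intervals. Windows in both lists lie highest for CpG, at 0.796, and for the GC box, at 70.2%, and gained windows lie highest for the octamer of Oct4, at 3.2%.

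Per gene, gained and lost sites mostly occurred together. Of 20665 protein-coding genes, 11671 were the nearest gene, within 100 kb, of a gained site, 11890 of a lost site and 8384 of both; 45.2% of the gained and lost sites at coding genes were gained. Within 1 kb of its ends, 1153 genes (5.58%) had a site in the intermediate and none in MEF, which is 16.2% of the 7128 genes without a MEF end site. The opposite held for 1605 genes (7.77%), which is 11.9% of the 13537 genes with a MEF end site. Gained end sites had a median height of 49 and were at genes with an ESC end site in 63.3% of cases. Lost end sites had a median height of 42, and 56.4% of their genes had an end site in ESC. For reference, 11683 of the 11932 genes with an end site in both lists had 1 in ESC. So did 761 of the 5975 genes with no end site in MEF or the intermediate. The gained and lost classes both lay between these, so 63.3% alone does not set gained ends apart. Of the genes with a lost end, 36.2% had no end site in either pluripotent list.

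Genes with the most gained sites were long, and they had many lost sites as well. Slc39a11, a zinc transporter gene of 405.35 kb, had 61 gained, 21 lost and 10 shared sites, the most gained sites of any gene. Sites up to 100 kb outside the gene body were counted, and with assignment within 20 kb Slc39a11 had 44 gained sites. Its end site was in both lists, at 43 in MEF and 33 in the intermediate. Auts2, a gene of neural development, had 44 gained and 41 lost sites, and Nav2, a neuron navigator, 38 gained and 44 lost, so both were changed in either direction to a like extent. Gpc6, a cell surface glypican, had 43 gained and 23 lost sites; Foxp1, a forkhead factor, 42 and 30; Zbtb7c, a zinc finger gene, 36 and 14; Pde4d, a cyclic AMP phosphodiesterase, 34 and 26. Macrod2 had 33 and 37, and Etl4 32 and 16. In these 9 genes, of the 10 with the most gained sites, the gained sites outnumbered the lost ones except at Nav2 and Macrod2.

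The genes with the most lost sites had from 33 to 44 of them. Lpp, a focal adhesion protein, had 38 lost and 9 gained sites, and Dlg2, a postsynaptic scaffold, 43 and 18. Sox5, a transcription factor, had 37 lost and 15 gained sites; Camta1, a calmodulin-binding transcription activator, 37 and 18; Gse1 37 and 16; Rbms3, an RNA-binding protein, 35 and 15. Kirrel3, a synaptic adhesion gene, had 33 lost and 9 gained sites and lost its end site of height 31. Nav2, Auts2 and Macrod2 appear in both sets of 10. A total of 73 genes had 20 or more gained sites and 150 genes had 20 or more lost sites.

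**Figure D4:**
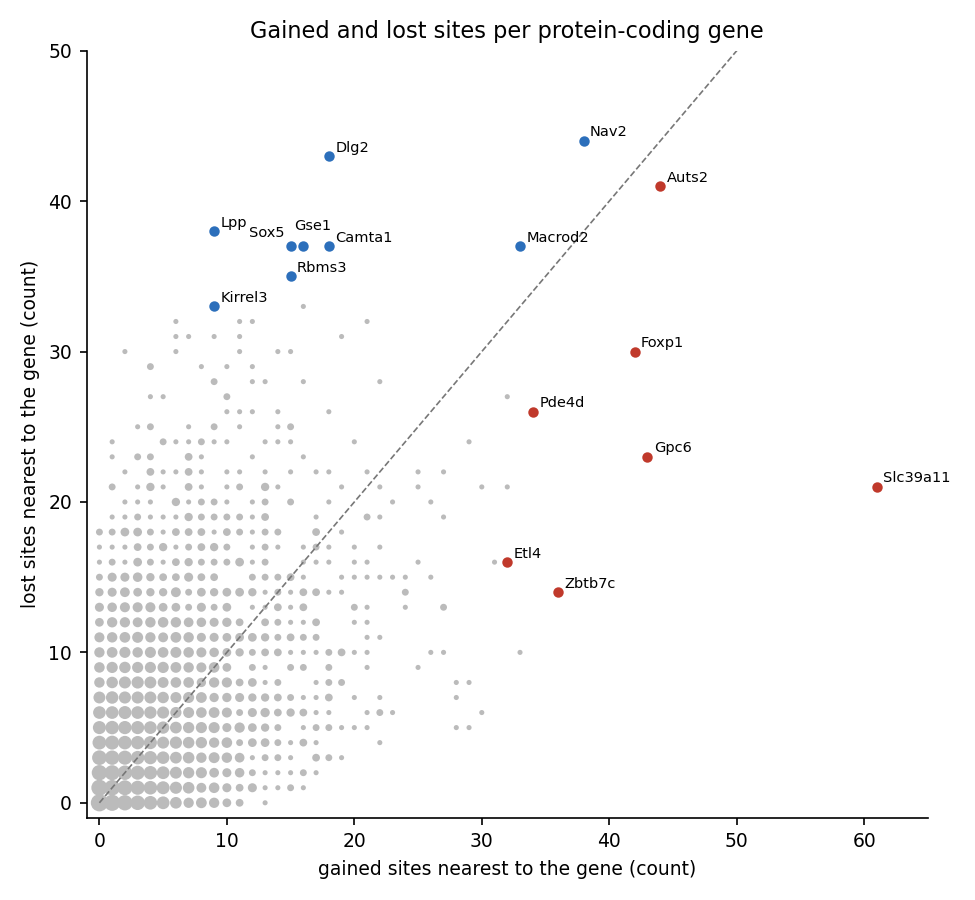
Each protein-coding gene by its number of gained (horizontal axis) and lost sites (vertical axis), counted at the nearest gene within 100 kb; grey points grow with the number of genes at that pair of counts, and the named points are among the genes with the most gained or lost sites, red where gained sites outnumber lost ones and blue otherwise. Slc39a11 lies farthest right with 61 gained sites, Lpp and Kirrel3 are the named genes with the fewest gained sites, 9 each, and Nav2 and Auts2 lie near the dashed line of equal counts.

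Some genes moved in 1 direction only. There were 1465 genes with gained sites and no lost or shared site, and 1302 with lost sites and no other. Glt1d1, a glycosyltransferase-like gene, had 10 gained sites, up to 226 high, with an end site of 79. Serpini1, which encodes neuroserpin, also had 10, up to 245 high. Cdh8, a cadherin of the nervous system, had 9 with an end site of 108, and Ceacam2, an adhesion molecule, 9 with an end site of 79. Otog, an inner ear gene, had 9 gained sites, none of them in iPSC or ESC, whereas 6 of the 9 at Cdh8 and 7 of the 10 at Serpini1 were in a pluripotent list. Gm10573 had 9, and C1ql2, Dstn, Gm14444 and Mal had 8 each. With assignment within 20 kb, Gm10573 had 0 gained sites, Gm14444 had 2 and Ceacam2 had 5, so part or all of their sites lay farther away. Serpini1 and Dstn had an end site in both lists all the same, which was counted at a neighbouring gene.

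On the lost side, Thsd4, whose product takes part in microfibril assembly in the matrix, had 15 lost sites and no other, up to 115 high, with an end site of 48 in MEF. Hsf2bp and Mxra7 had 12 each, Armc4 and Tnfsf18 11 each, D630003M21Rik, Dcdc2c and Gm536 10 each, and Musk, a muscle receptor kinase, and Sirpa 9 each. With assignment within 20 kb Gm536 had 6 lost sites. Sirpa, a membrane receptor of myeloid cells and neurons, had an end site of 206 in MEF and none in the other 3 lists. None of the lost sites at Hsf2bp, Armc4, Tnfsf18, Dcdc2c, Gm536 and Musk was in iPSC or ESC. Hsf2bp had an end site in both lists (74 in MEF, 44 in the intermediate) that was counted at a neighbouring gene. At these 6 genes the absence of MEF sites from the intermediate followed from the choice of genes. Of all lost sites 82.4% were in neither iPSC nor ESC.

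The tallest gained and lost sites were unlike the rest. Of the 10 tallest gained sites, 5 lay in a stretch of chromosome 8 near Gm15319, Gm21119 and 4930467E23Rik, with heights of 1439, 1242, 1123, 1108 and 877. The tallest, chr8:20263591-20270170, had heights of 285 in iPSC and 293 in ESC. The region holds near-identical gene copies, and how the authors placed reads among the copies can change these values, which are uncertain. The other 5 were near Kctd16 (983, and 2390 in ESC), 4931408C20Rik (747), Gm7697 (665), Tex35 (575) and Chil4 (537). Of the 10, 8 were in ESC, and those at 4931408C20Rik and Tex35 were in neither pluripotent list.

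Of the 10 tallest lost sites, 8 were in ESC and 7 of these also in iPSC, mostly at heights close to that in MEF. The site nearest to Adgre5 had heights of 941 in MEF, 909 in iPSC and 948 in ESC, and none in the intermediate. The site inside Greb1, an oestrogen-responsive gene, had 742, 803 and 780, and that in Pde1c, a cyclic nucleotide phosphodiesterase, 794, 713 and 769. The site in Ror2, a Wnt receptor, had 754 in MEF and 758 in ESC. Those near Eno1b, D430019H16Rik and Stt3b, and the site chr14:90911031-90911450 with no gene within 100 kb, had heights of 709 to 1034 in MEF and 512 to 1037 in the pluripotent lists. The 2 exceptions were Kcnh1 (1050) and Vmn1r2 (1045), which were in MEF alone. The tall lost sites had a median width of 635 bp against 3605 bp for the tall gained ones. So 7 of the tallest lost sites were absent from the intermediate alone, in contrast to the tallest decile of lost sites, of which 16.3% were in ESC.

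Gene lists were then read by role, 26 in all with 580 different genes on the chromosomes compared. For each list the share of gained sites among its gained and lost sites stands beside the 45.2% of all coding genes, and end sites beside the 16.2% gained and 11.9% lost named above. No list was tested.

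Fibroblast identity genes were mostly on the losing side. The fibroblast transcription factors had 71 gained and 175 lost sites (28.9% gained, 23.6 to 34.8), and 23 of 30 members had more lost than gained sites. Of 26 members with a MEF end site 6 lost it: Twist2 (69 in MEF), a mesenchymal basic helix-loop-helix factor, Osr1 (55), Foxf2 (54), Foxf1 (52), Prrx2 (35) and Tbx15 (30). Every one of them except Foxf1 had an end site in iPSC, and all had 1 in ESC. Pparg, the fat cell regulator, was the only member with a gained end (41). The tallest lost site of the list was at Klf6, a zinc finger factor, with 257 in MEF and none in the other lists, 23.3 kb from the gene's end.

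Matrix and contractile genes had still lower gained shares. The collagens had 57 gained and 179 lost sites (24.2%), and 5 of 18 ends were lost: Col16a1 (69 in MEF), Col12a1 (49), Col3a1 (48), Col14a1 (47) and Col6a3 (41). Col3a1 and Col6a3 had no end site in iPSC or ESC either. Matrix glycoproteins and remodelling enzymes had 51 gained and 199 lost sites (20.4%), and 7 of 27 ends were lost, the tallest at Loxl1, a lysyl oxidase that cross-links elastin, with 175 in MEF, 32 in iPSC and 48 in ESC. Tnc, the matrix protein tenascin, had 153 in MEF, 184 in iPSC and 83 in ESC and none in the intermediate, so its end was absent from the intermediate alone. Postn, the matrix protein periostin, had 93 in MEF and none elsewhere, and the tallest lost site of this list was at Mmp2, a gelatinase, with 231. Mmp3, a stromelysin, was the only member with a gained end, at 27.

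The smooth muscle and actin list stood lowest of all, with 23 gained and 135 lost sites (14.6%, 9.90 to 20.9), and none of its 22 members had more gained than lost sites. It lost 4 ends: Tagln, an actin-binding protein (159 in MEF, 41 in ESC), Acta2, smooth muscle actin (146 in MEF, 38 in ESC), Cnn1, calponin (75), and Des, desmin (56). Srf, the serum response factor that drives many of these genes, had a gained end of 29. Integrins and focal adhesion genes had 110 gained and 306 lost sites (26.4%), with more lost than gained sites at 24 of 27 members and the reverse at 0. Of 25 ends in MEF 2 were lost, a share below that of all genes, at Flnc, a filamin of muscle (121), and Tln2, talin (56). Their tallest lost site was at Tns3, a tensin of focal adhesions, with 239 in MEF, none in iPSC and 26 in ESC.

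**Figure D5:**
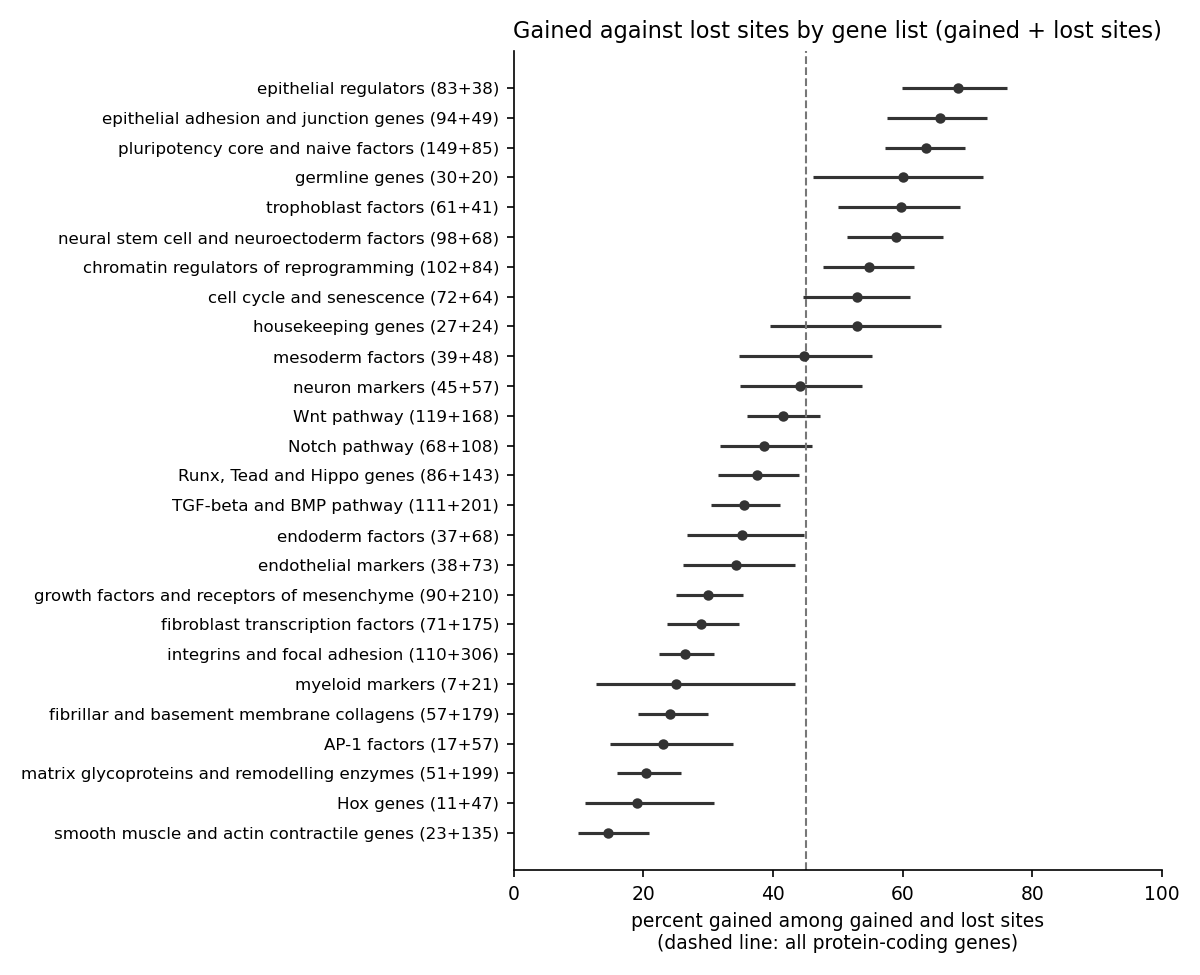
Percent gained among the gained and lost sites nearest to the members of each of 26 gene lists (points, with Wilson 95% intervals over sites), with the numbers of gained and lost sites beside each name; the dashed line is the 45.2% of all protein-coding genes. Epithelial and pluripotency lists lie between 63.7 and 68.6%, and matrix, Hox and contractile lists between 14.6 and 20.4%.

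The regulators of fibroblast enhancers differed among themselves. AP-1 genes had 17 gained and 57 lost sites (23.0%), yet 14 of 15 had an end site in both lists and none was gained or lost; their tallest lost site was at Maf, with 140. The 3 Runx genes lost their ends, at Runx1 (66 in MEF), Runx2 (41) and Runx3 (35), and none of them had an end site in iPSC or ESC. Runx1 had 27 lost and 5 gained sites, Runx2 17 and 6, and Runx3 16 and 1. Tead4, a partner of Yap, held the tallest gained site of the Runx, Tead and Hippo list, at 249. That list had 86 gained and 143 lost sites (37.6%) and lost 5 of 21 ends, the others at Ankrd1 (127) and Amotl1 (39). Within the AP-1 list, the start window of Jund itself held a site in MEF alone (257), although another site lay within 1 kb of its ends in the intermediate (209).

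Among signalling genes, TGF-beta and BMP genes had 111 gained and 201 lost sites (35.6%). The only changed end of 28 in MEF was at the ligand Bmp4 (35). Smad3, the intracellular effector of TGF-beta, had 24 lost sites and 1 gained site and kept its end (167 in MEF, 71 in the intermediate); it was named after its values were seen. Smad4, the common partner of the Smad proteins, had the tallest gained site, at 233. Growth factors and receptors of mesenchyme had 90 gained and 210 lost sites (30.0%) and lost 9 of 23 ends. These included the ligands Pdgfb (75 in MEF), Hgf (67), Fgf2 (44) and Fgf10 (39), and the receptor Pdgfrb (72). Their tallest gained site was at the receptor Egfr, at 302 against 35 in iPSC and 24 in ESC.

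Epithelial genes lay on the opposite side. Adhesion and junction genes had 94 gained and 49 lost sites (65.7%, 57.6 to 73.0), and 10 of 11 members without a MEF end site gained 1. Dsg2, a desmosomal cadherin, had 240 in the intermediate beside 282 in iPSC and 131 in ESC. In the same order Cdh1 had 224, 90 and 157, and Cldn4 had 182, 100 and 84. Crb3, a polarity protein, had an end site of 130, Dsp, desmoplakin, of 82, and Ocln, the tight junction protein occludin, of 80. Of the 10 genes, 9 also had an end site in both pluripotent lists, and Pkp3 (39) had none there. Krt7, a keratin, was the only end lost, at 78 in MEF.

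Epithelial regulators had 83 gained and 38 lost sites (68.6%, 59.9 to 76.2), the highest share of the 26 lists. Their ends gained 6 and lost 0: Esrp1, an epithelial splicing regulator (179), Mal2 (105), Ovol1, a zinc finger repressor (91), Tfap2a (75), Grhl2, a grainyhead factor of epithelia (69) and Rab25, a small GTPase (36). Grhl2 had 16 gained and 6 lost sites. The tallest gained site was at Tfap2c, a factor of trophoblast and early germ cells as well, with 243 in the intermediate beside 50 in iPSC and 145 in ESC. Of the gained sites of this list 59.0% were in iPSC or ESC, beside 42.5% of all gained sites.

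Pluripotency factors had 149 gained and 85 lost sites (63.7%, 57.3 to 69.6). Of 19 members without a MEF end site 9 gained 1, among them Gdf3, a Nodal-related ligand (202 in the intermediate, 106 in iPSC, 73 in ESC), Fbxo15, a classical Oct4 target (184, 242, 126) and Zfp42 (140, 400, 219). Sall4, a zinc finger partner of Oct4, had 112, 83 and 138; Tdgf1, the Nodal co-receptor, 80, 88 and 136; Fgf4, a ligand made by pluripotent cells, 65, 137 and 111. Otx2 (38 in MEF) and Lefty2 (29) lost their end sites. Of the gained sites of this list 69.1% (61.3 to 76.0) were in iPSC or ESC, above the 42.5% of all gained sites, and the lost ones 30.6%, beside 17.6% of all lost sites. The tallest gained site was at Tet2, which oxidises methylated cytosine, at 361, beside 89 in iPSC and 84 in ESC. Gdf3 was also nearest to the list's tallest lost site, with 370 in MEF and none in the other 3 lists, 5.50 kb from the gene's end.

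Neural genes were of interest because the protocol leads on to neural stem cells. Neural stem cell and neuroectoderm factors had 98 gained and 68 lost sites (59.0%, 51.4 to 66.2). Of 7 members without a MEF end site 5 gained 1: Sox1 (58), Pax6 (45), Slc1a3 (41), Olig2 (39) and Hes5 (31). All 5 had an end site in iPSC and in ESC as well. Fabp7 (51 in MEF) and Otx2 (38) lost theirs, and these too had end sites in both pluripotent lists. The tallest gained site of the list was at Pax6, an eye and forebrain regulator, with 261 in the intermediate, 39 in iPSC and none in ESC. Neuron markers had 45 gained and 57 lost sites (44.1%) and gained ends at Elavl3 (39), Gad1 (39) and Rbfox3 (27).

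Notch genes had 68 gained and 108 lost sites (38.6%) and gained the ends they lacked in MEF, at Rbpj (41), the DNA-binding effector of the pathway, and at the ligands Dll3 (35) and Dll4 (27). Their tallest gained site was near the ligand Jag1, at 342, beside 346 in iPSC and 167 in ESC. Wnt genes had 119 gained and 168 lost sites (41.5%, 35.9 to 47.2), an interval that includes the share of all genes. Axin2, a feedback inhibitor (63), and the ligand Wnt3a (36) gained ends, and Wnt4 (61 in MEF), Wnt10b (38) and the inhibitor Dkk3 (35) lost theirs. The co-receptor Lrp6 had the tallest gained site of this list, at 311, in neither pluripotent list.

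Lineage factors outside the fibroblast and neural programmes gave mixed counts. Trophoblast factors had 61 gained and 41 lost sites (59.8%), with the tallest gained site near Elf5 (319); Elf5 had a lost start (23 in MEF) and another, gained start (58 in the intermediate). Endoderm factors had 37 and 68 (35.2%); Gata6 (92 in MEF), Lamb1 (45) and Foxa1 (32) lost their ends, and Foxa2 (34) and Sox7 (26) gained theirs. Mesoderm factors had 39 and 48 (44.8%), with gained ends at Msgn1 (49), Myf5 (40), Mesp1 (35) and Myod1 (32) and lost ends at Kdr (77 in MEF) and Tbx5 (23). Germline genes had 30 and 20 (60.0%), with gained ends at Tdrd12 (197 in the intermediate, 57 in iPSC, 53 in ESC), Piwil2 (183, and none in either) and Dnd1 (34). The gained start windows of Tdrd12 held 37 in the intermediate, none in iPSC and 53 in ESC, so the site of 197 lay outside them. Tdrd12 and Piwil2 act in the piRNA pathway of germ cells.

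Hox genes, which record position along the body axis in fibroblasts, had 11 gained and 47 lost sites (19%, 10.9 to 30.9), and 14 of 29 ends were lost against 2 gained. Lost ends were at Hoxa3 (119 in MEF), Hoxa5 and Hoxa6 (57, the same site), Hoxa10 and Hoxa11 (53) and Hoxb2 (40), among others, and gained ends were at Hoxb1 (48) and Hoxd1 (48). The ESC list had an end site at 30 Hox genes, so the intermediate, with 17, had fewer than either MEF or ESC. Neighbouring Hox genes can share an end site and are not independent.

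Chromatin regulators had 102 gained and 84 lost sites (54.8%) and no gained or lost end among 35 members, 31 of which had an end site in each list. Of cell cycle and senescence genes 72 sites were gained and 64 lost (52.9%), and the end of E2f2 (47) was lost; their tallest gained site was near Mycn, a Myc family gene, at 259. Housekeeping genes had 27 gained and 24 lost sites (52.9%), with a gained end at Ywhaz (36) and a lost end at Gusb (151). Even constitutive genes thus had changed sites around them, and the housekeeping interval (39.5 to 65.9) included the share of all genes.

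Markers of other cells that a fibroblast culture can hold moved as well. Myeloid markers had 7 gained and 21 lost sites; 6 of 10 had an end site in MEF, at heights from 26 at Spi1 to 105 at Cd68, and these 2 were the members with 1 in the intermediate. Csf1r (78 in MEF), Cd14 (67), Lyz2 (48) and Tyrobp (29) lost theirs, while Ptprc, Itgam, Adgre1 and Aif1 had none in any list. Endothelial markers had 38 gained and 73 lost sites; 5 of 11 had an end site in MEF and 2, Tek and Erg, in the intermediate; Pecam1, Cdh5 and Tie1 had none in either. Kdr, the receptor of vascular endothelial growth factor, had 15 lost sites and 1 gained, with a tallest lost site of 232 in MEF alone. These values move with the losses at fibroblast genes, and the part of such cells in them was not tested.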

How the data were processed

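Peak lists of 4 ATAC-seq libraries were used, each as the authors deposited it. Per the file headers, each peak has a start, an end, a summit position and a height; the height is an unscaled signal that the authors' processing wrote, of at least 5 in every list. Peaks divided into neighbours were most often 10 bp apart, which the joining undoes. Named in the submitters' processing notes are the build mm10 and the tools MACS 1.4.2-1, Bowtie2, Picard and CASAVA 1.8.2; what each did, and with which settings, is not stated in those notes as used here. A score per peak had been foreseen and the height signal took its place.

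Sites were joined, overlapped and assigned to RefSeq genes of GRCm38.p6 with Python 3.11.15, pandas 2.3.3, numpy 2.4.6 and scipy 1.17.1, in steps tested on simulated data. No motif search in the sites was made, since no genome was used. Members and lists were chosen with earlier results of these data known. The genes named are, for each direction, the 10 with the most sites, those nearest the 10 tallest sites, the 10 with most sites in 1 direction only, and list members with a changed end (up to 6) or with the tallest changed site; others were named after their values were seen. Alternatives were peaks left unjoined, joining at 100 bp, an overlap of 50%, lists of equal length and the taller 50% of joined sites. Others were peaks of 500 bp, heights of 10 or more, the X chromosome added, assignment within 20 kb and an end window of 2.5 kb. Of the 592 list genes, 12 on chromosome X were not compared. Results at some genes are not reported here.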

Additional observations from a re-analysis of the deposited data

Results flagged for a closer look

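Sites on the X chromosome lie outside the comparison of chromosomes 1 to 19 and still divided between the lists. Of 1698 X sites of the intermediate 1173 were gained (69.1%, Wilson 95% interval 66.8 to 71.2), and of 1294 X sites of MEF 774 were lost (59.8%, 57.1 to 62.5). On the autosomes the gained share was the lower of the 2, and on X it was the higher. The labels do not give the sex of the cells in either library, and its part in these values was not tested.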

How the results depend on the processing

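The order of the gained and lost shares near gene ends, 6.76% and 6.95%, turned round with lists of equal length (6.97% and 6.6%) and with joining at 100 bp (6.61% and 6.56%), so neither share can be called the larger. Peaks left unjoined gave 59.4% gained and 65.5% lost, with 8.17% and 9.4% of these near gene ends and 38.1% and 29.9% of the tallest decile gained and lost. An overlap of 50% gave 63.5% and 68.2%, and 7.21% and 7.45% near ends. Lists of equal length gave 62.7% gained and 64.7% lost, and 16.9% of the tallest MEF decile lost. The taller 50% of joined sites gave 59.7% and 64.5%, 8.11% and 10.5% near ends, and 26.6% and 12.8% of the tallest deciles. Peaks of 500 bp gave 59.6% and 63.7%, 8.85% and 9.7%, and 33% and 21.1%. Joining at 100 bp gave 17.8% of the tallest MEF decile lost. With an end window of 2.5 kb, 12.7% of gained and 12.7% of lost sites were near ends. Genes with a gained end numbered 1070 to 1248 under the alternatives beside 1153, and those with a lost end 1480 to 2040 beside 1605. Of the 40 counts of sites at the genes with the most, or only 1 kind of, changed sites, 29 moved without joining, 4 with assignment within 20 kb and 0 with the 50% overlap. No paired analysis was possible because each group has 1 library. Depth is unknown, so a low site absent from a list may lie under the limit of detection of that library, and no interval here covers differences between cultures.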

Other observations

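Some gained and lost sites followed each other without a site of another class between them. There were 110 runs of 10 or more gained sites and 266 runs of 10 or more lost sites, counted along each chromosome over both lists. Among the longest lost runs, 24 lost sites in a row lay along Glis3, a zinc finger gene (chromosome 19, 480.63 kb), 24 at Tnc and its neighbours Tnfsf8 and Tnfsf15 (chromosome 4, 384.64 kb), and 20 within 91.6 kb at Smad3, with none of these 20 in iPSC or ESC. The 20 lost sites around Svep1, Musk and Lpar1 were likewise in neither. In all, 68 of the 266 lost runs and 2 of the 110 gained runs had no site in iPSC or ESC. Of all lost sites 82.4% were in neither list, and of all gained sites 57.5%. Whether sites in runs differ from other sites of their class in this was not tested.

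The longest gained run, 27 sites, was at Adam6a and Adam6b (chromosome 12, 1508.72 kb), with 19 of its sites in ESC and 20 in iPSC. Another 25 ran through vomeronasal receptor genes and Zscan4b to Zscan4f (chromosome 7, 1870.46 kb), with 8 in ESC, and 23 through the Oog1 and Pramel51 region (chromosome 12, 778.14 kb), with 4 in ESC. A run of 23 on chromosome 1 (1682.47 kb) had no coding gene assigned. Reads on near-identical copies can be placed in several ways, so counts in these families are uncertain. Runs of 19 gained sites lay at Cntnap4 and Terf2ip (chromosome 8, 528.05 kb), with 8 in ESC, and at Tet2 and Ppa2 (chromosome 3, 167.77 kb), of which 7 were in ESC and 8 in iPSC, and 16 at Ehf, an epithelial Ets factor, and Apip (chromosome 2, 221.23 kb), with 5 in each. These runs were chosen after their values were seen.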
